A study of Homo sapiens with 24 samples.

Results

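The genes described here make, reduce and use glutathione. They were chosen by symbol from the deposited count table: GCLC, GCLM and GSS for synthesis, GSR for reduction, GPX1, GPX2, GPX3 and GPX4 as peroxidases, and GSTP1 and MGST1 as transferases. All 10 were found among the 33113 genes of that table, and their levels were followed through 24 RNA samples. HCT116, a human colorectal carcinoma line, was compared with HCT116 oxpl-R, an oxaliplatin-resistant population that was raised from it by repeated pulses of the drug and that has a hypotetraploid karyotype. Cells of both lines carried a doxycycline-inducible adenovirus E1A gene, the controls included. Each line was left as an untreated control, given 0.5 µg/mL doxycycline to induce E1A, given 25 µM oxaliplatin for 24 h, or given both, with 3 biological replicates in each of the 8 groups. Below, E1A stands for the doxycycline treatment: the tables used here hold no row for the transgene, doxycycline without the transgene was not among the groups, and an effect of the drug itself cannot be told apart from one of E1A.

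Glutathione is the main thiol of the cell. Glutamate-cysteine ligase joins glutamate to cysteine in the rate-limiting step, glutathione synthetase adds glycine, peroxidases spend glutathione on hydrogen peroxide and lipid hydroperoxides, and glutathione reductase returns the oxidized form to use at the cost of NADPH. Transferases couple glutathione to electrophiles, and platinum compounds can be bound by glutathione and exported as conjugates, which is why the pathway has long been studied in resistance to platinum drugs. Several of these genes are known targets of the transcription factor NRF2.

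The counts of the table summed to between 24838095 and 37927720 per sample, with a median of 29382753. Epithelial markers fitted the labelled carcinoma line: 6 of 6 were detected, with a summed level of 5183 to 16402 CPM (read counts scaled to a common library size with TMM factors), while endothelial markers summed to at most 0.646 CPM and leukocyte markers to at most 2.46 CPM. Fibroblast markers summed to 14.1 to 40.9 CPM, and 1 of the 4 averaged above 1 CPM. By transcriptome-wide similarity, 9 samples correlated better with a sample of another group than with any of their own. Among them HCT116 oxaliplatin replicate 3 and HCT116 E1A + oxaliplatin replicate 1 stood apart from their groups and were closest to each other (Pearson r of 0.985 on log2 values, against at most 0.968 and 0.971 within their own groups), and HCT116 oxpl-R oxaliplatin replicate 3 was closest to an HCT116 oxpl-R control (0.976, against 0.970 within its group). Calls among the 10 genes that these 3 libraries enter are given with and without them. The rest of the 9 were HCT116 E1A replicate 3, HCT116 oxpl-R control replicate 3, HCT116 oxpl-R oxaliplatin replicate 2 and all 3 HCT116 oxpl-R E1A samples. That oxaliplatin sample was closest to an HCT116 oxpl-R E1A + oxaliplatin sample (0.985, against 0.973 within its group). Each HCT116 oxpl-R E1A sample was closest to an HCT116 oxpl-R control (0.982, 0.990 and 0.990). In bulk RNA, fewer cells with a transcript and less of it per cell cannot be told apart.

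Per kilobase of transcript, the transferase GSTP1 stood highest, with a mean level over all 24 samples of 1861 CPM per kb. GPX1 followed with 974, GPX4 with 534 and MGST1 with 199 CPM per kb. GSS (93.1 CPM per kb) and GSR (89.0 CPM per kb) were close to each other in this mean, but the order depended on the line: in controls GSR lay above GSS in HCT116 cells (146 ± 6.34 against 66.0 ± 4.42 CPM per kb, SD, n = 3) and below it in HCT116 oxpl-R cells (43 ± 0.367 against 79.2 ± 1.5 CPM per kb). GCLC and GCLM lay lower, at 13.7 and 12.9 CPM per kb. GPX3 and GPX2 were near the limit of detection, at 0.247 and 0.128 CPM per kb.

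In untreated cells, 7 of the 10 genes differed between the lines at an adjusted p below 0.05 (edgeR's quasi-likelihood test, Benjamini-Hochberg adjustment over 16715 genes). HCT116 oxpl-R cells had more GCLM, GPX1, GPX2, GPX3 and MGST1 and less GCLC and GSR. Among all genes tested, 14.1% were called higher and 14.2% lower. The 8 genes with ample counts (all but GPX2 and GPX3) had a median log2FC of 0.14, beside -0.02 over all genes with a mean of at least 10 counts. With E1A the lines differed in 4 of the 10 (GCLM, GPX1 and MGST1 higher and GSR lower in the resistant line), where 10.6% of all genes were called higher and 7.1% lower. Under oxaliplatin 3 were called (GSR, GPX4 and GSTP1), all lower in HCT116 oxpl-R, where 9.77% of all genes were called higher and 10.9% lower. Under E1A + oxaliplatin 4 were called (GCLM and GPX1 higher, GSR and GSTP1 lower), against 10.1% and 8.39% of all genes.

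The 2 subunits of glutamate-cysteine ligase differed between the untreated lines in opposite directions. GCLC, the catalytic subunit (chromosome 6, 53497341 to 53616970, minus strand, GRCh38), measured 78.8, 82.3 and 67.8 CPM in the 3 HCT116 controls and 50.4, 47.1 and 40.6 CPM in the 3 HCT116 oxpl-R controls. All HCT116 controls lay above all HCT116 oxpl-R controls, and the difference was a log2FC of -0.72 (SE 0.13, adjusted p = 0.000973), 1.65-fold lower. GCLM, the modifier subunit that raises the affinity of the enzyme for glutamate (chromosome 1, 93885199 to 93909456, minus strand), measured 53.5, 59.5 and 58.6 CPM in HCT116 controls and 89.5, 103 and 81.4 CPM in HCT116 oxpl-R controls. Here the samples of HCT116 oxpl-R were all the higher ones, with a log2FC of 0.68 (SE 0.12, adjusted p = 0.000799), 1.61-fold. Both calls were kept under every alternative that was run.

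The 250 bases before the RefSeq start of each subunit gene are shown because the pair moved apart. Capitals mark the core of the antioxidant response element bound by NRF2 (TGACNNNGC on either strand) and the AP-1 site (TGANTCA on either strand). The GCLC window (chr6:53545102-53545351, minus strand, GRCh38.p14) has no match, and the GCLM window (chr1:93909431-93909680, minus strand) has 1 match to the response element core on its opposite strand, beginning 34 bases before the start. Only these 250 bases were searched, here and for the other genes, so a window without a match does not show that a gene lacks the element farther away.

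GCLC: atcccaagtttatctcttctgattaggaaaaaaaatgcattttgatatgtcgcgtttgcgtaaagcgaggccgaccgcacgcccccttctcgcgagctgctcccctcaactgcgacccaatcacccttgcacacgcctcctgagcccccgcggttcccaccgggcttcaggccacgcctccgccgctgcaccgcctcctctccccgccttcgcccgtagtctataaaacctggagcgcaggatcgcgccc

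GCLM: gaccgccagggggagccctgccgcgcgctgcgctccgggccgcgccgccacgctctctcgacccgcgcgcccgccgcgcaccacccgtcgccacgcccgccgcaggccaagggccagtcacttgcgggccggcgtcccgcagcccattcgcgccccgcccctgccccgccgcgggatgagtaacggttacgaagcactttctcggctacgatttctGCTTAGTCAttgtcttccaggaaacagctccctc

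Of the 10 genes, 8 had a window in the RefSeq table, with 12 windows among them. The response element core lies in 1 window of each of 3 genes (GCLM, GPX2 and GSTP1). It occurs in 10.9% of 34943 windows of the same length over all genes, a share by window and not by gene. The AP-1 site, found in 6.59% of all windows, occurs in 1 of the 8, GSTP1, where it overlaps the response element core. These matches are letters in a window and were not tested for binding.

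The balance of the subunits was followed as the log2 ratio of GCLC to GCLM per kilobase. In controls it was 0.93, 0.84 and 0.58 in HCT116 cells and -0.46, -0.76 and -0.64 in HCT116 oxpl-R cells, so GCLC led in the parental line and GCLM in the resistant one. The lines also did not overlap under E1A (0.40, 0.43 and 0.79 against -1.10, -0.24 and -0.09) or under E1A + oxaliplatin (0.36, 1.08 and 1.02 against -0.42, -0.17 and 0.13). Under oxaliplatin alone they overlapped, with -0.22, 0.36 and 0.90 in HCT116 cells against -0.41, -0.52 and -0.17. With 3 samples against 3, a two-sided exact permutation test cannot go below p = 0.1, which was reached in the 3 comparisons without overlap and was 0.2 under oxaliplatin (adjusted p = 0.286 in all 4, over 10 comparisons).

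Among the treated cells, GCLM was called higher in the resistant line under E1A and under E1A + oxaliplatin, and GCLC was called under none of the treatments. Whether either line difference changed with E1A or with oxaliplatin was read from the interactions, none of which was called for these 2 genes on all samples. The log2FC of GCLM between the lines was 0.67 under E1A (SE 0.16, adjusted p = 0.0125) and 0.95 under E1A + oxaliplatin (SE 0.23, adjusted p = 0.00982). Under oxaliplatin it was 0.70 (SE 0.24, adjusted p = 0.0537) and was not called, with 47.2, 44.2 and 35.5 CPM in HCT116 cells below 56.2, 89.7 and 73.0 CPM in HCT116 oxpl-R cells. It was 0.59 (adjusted p = 0.123) without HCT116 oxaliplatin replicate 3 and 0.75 (adjusted p = 0.0757) without HCT116 oxpl-R oxaliplatin replicate 3, while DESeq2 called it on all samples (0.74, adjusted p = 0.0353). The E1A call was lost without any of HCT116 E1A replicates 1, 2 and 3 or HCT116 oxpl-R E1A replicate 2 (log2FC 0.71, 0.71, 0.60 and 0.49), and the E1A + oxaliplatin call without HCT116 oxpl-R E1A + oxaliplatin replicate 1 (0.74, adjusted p = 0.0593); without HCT116 E1A + oxaliplatin replicate 1 it was 0.94 (adjusted p = 0.00579). GCLC differed by -0.29 (SE 0.22), -0.04 (SE 0.26) and -0.09 (SE 0.23) under E1A, oxaliplatin and both, none of which was called. Without HCT116 oxpl-R E1A replicate 2, at 60.8 CPM the highest of its group, the E1A difference of GCLC was -0.64 (adjusted p = 0.0228).

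GSS, the glutathione synthetase (chromosome 20, 34928432 to 34956027, minus strand), measured 121, 121 and 136 CPM in HCT116 controls and 148, 152 and 153 CPM in HCT116 oxpl-R controls. The groups did not overlap, but the log2FC of 0.27 (SE 0.10) had an adjusted p of 0.0605. DESeq2 called it (0.29, adjusted p = 0.0338), as did edgeR without HCT116 control replicate 3 (0.35, adjusted p = 0.0288) or HCT116 oxpl-R control replicate 3 (0.28, adjusted p = 0.0403). Under the 3 treatments the line differences of GSS were 0.19, 0.30 and 0.18, none of them called, and under oxaliplatin the value was 0.19 without replicate 3 of the HCT116 cells and 0.44 without that of the resistant cells.

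GSR, the glutathione reductase (chromosome 8, 30678066 to 30727846, minus strand), had the largest line difference among the 8 genes with ample counts. It measured 434, 429 and 465 CPM in HCT116 controls and 131, 129 and 131 CPM in HCT116 oxpl-R controls, a log2FC of -1.75 (SE 0.10, adjusted p = 7.79e-08), 3.37-fold lower. The lowest of the 12 HCT116 samples over all treatments, at 329 CPM, lay above the highest of the 12 HCT116 oxpl-R samples, at 181 CPM. The log2FC was -1.46 under E1A (SE 0.14, adjusted p = 3.88e-05), -1.49 under oxaliplatin (SE 0.23, adjusted p = 0.000702) and -1.49 under both (SE 0.19, adjusted p = 6.29e-05). All 4 calls were kept under every alternative, including those without a library that stood apart (-1.60 and -1.53 under oxaliplatin and -1.43 under both).

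The genes around GSR did not share its difference. Of the 10 other genes within 1 Mb on either side that had a mean of at least 10 counts, 4 were called higher in untreated HCT116 oxpl-R cells and 0 lower, with a median log2FC of 0.32. Over all genes tested, without that limit on counts, 14.1% were called higher and 14.2% lower. The genes around GPX3 and GPX1 had higher medians, as did these members themselves: of 16 neighbours of GPX3, 10 were called higher and 2 lower (median log2FC 0.55), and of 51 neighbours of GPX1, 24 were called higher and 3 lower (median 0.41). GPX2 was also called higher, but of its 11 neighbours 1 was called higher and 4 lower (median -0.24). Around GCLC (10 neighbours, median -0.06), GCLM (12, median -0.17) and MGST1 (4, median -0.49) the medians were closer to 0 than the member's own change, or on the other side of 0. Copy number was not measured in these tables, and its part in these values was not tested.

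The cytosolic and mitochondrial peroxidase GPX1, a selenoprotein that reduces hydrogen peroxide (chromosome 3, 49357174 to 49358605, minus strand), was higher in the untreated resistant line. It measured 412, 394 and 460 CPM in HCT116 controls and 643, 850 and 761 CPM in HCT116 oxpl-R controls, a log2FC of 0.84 (SE 0.13, adjusted p = 0.000256), 1.79-fold. The difference was 0.66 under E1A (SE 0.15, adjusted p = 0.0111) and 0.79 under E1A + oxaliplatin (SE 0.20, adjusted p = 0.0123), and 0.33 under oxaliplatin (SE 0.26, adjusted p = 0.428), where the samples overlapped and the value was 0.23 without replicate 3 of the HCT116 cells and 0.51 without that of the resistant cells. The E1A call was lost without HCT116 E1A replicate 1 (0.63, adjusted p = 0.0825) or 2 (0.67, adjusted p = 0.0709), and the E1A + oxaliplatin call without HCT116 E1A + oxaliplatin replicate 3 (0.71, adjusted p = 0.0556) and kept without replicate 1 (0.85, adjusted p = 0.00196). A processed pseudogene, GPX1P1, had at most 36 counts in any sample, against 11721 or more for GPX1.

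GPX4, the peroxidase that reduces phospholipid hydroperoxides and holds back ferroptosis (chromosome 19, 1103982 to 1106791, plus strand), did not differ detectably between the untreated lines. It measured 393, 359 and 421 CPM in HCT116 controls and 344, 376 and 431 CPM in HCT116 oxpl-R controls, a log2FC of -0.02 with a 95% interval from -0.27 to 0.23. Under oxaliplatin it measured 724, 624 and 526 CPM in HCT116 cells and 424, 333 and 345 CPM in HCT116 oxpl-R cells, without overlap, and the log2FC was -0.85 (SE 0.24, adjusted p = 0.0223). That call was lost without HCT116 oxaliplatin replicate 1 (-0.69) or 2 (-0.81) or without HCT116 oxpl-R oxaliplatin replicate 2 (-0.77) or 3 (-0.76), and was kept without HCT116 oxaliplatin replicate 3 (-0.96, adjusted p = 0.0166). Under E1A + oxaliplatin the difference was -0.34 (SE 0.20, adjusted p = 0.289).

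GPX3 and GPX2 were detected at low counts. GPX3, the secreted plasma peroxidase (chromosome 5, 151020591 to 151028988, plus strand), had 0, 0 and 0 counts in the HCT116 controls and 18, 64 and 20 in the HCT116 oxpl-R controls, at least 11.5-fold higher when a count of 0 is taken to allow up to 3 counts per library (adjusted p = 0.000291). Without the sample of 64 counts the limit was 6.76-fold. Such limits cover counting error only. GPX2, the gastrointestinal peroxidase (chromosome 14, 64939152 to 64942746, minus strand), had 0, 0 and 3 counts against 11, 11 and 8, a pooled ratio of 10.8 with a 95% counting interval from 3.36 to 55.3 (adjusted p = 0.0486). The GPX2 call was lost under 7 of 11 alternatives. Among these were fits without HCT116 control replicate 1 or 2 or HCT116 oxpl-R control replicate 1 or 2 (adjusted p of 0.0748 to 0.141) and the common fit of all groups (0.0585). The GPX3 call was kept throughout.

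Neither of them was called between the lines in treated cells. Under E1A, GPX3 had 47, 0 and 13 counts in HCT116 cells and 55, 6 and 10 in HCT116 oxpl-R cells. The pooled ratio was 1.15, with a counting interval from 0.806 to 1.65. This interval leaves out the wide spread between replicates, so it does not show how close the lines are. Under E1A + oxaliplatin GPX2 had 0, 0 and 0 counts in HCT116 cells and 4, 3 and 8 in HCT116 oxpl-R cells (adjusted p = 0.0661), at least 1.5-fold higher by the same limit.

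Among the transferases, GSTP1 and MGST1 differed in where they separated the lines. GSTP1, the cytosolic pi-class transferase (chromosome 11, 67583742 to 67586656, plus strand), measured 1094, 983 and 1194 CPM in HCT116 controls and 1018, 1146 and 1106 CPM in HCT116 oxpl-R controls, a log2FC of 0.01 with a 95% interval from -0.24 to 0.26. Under oxaliplatin it measured 2722, 2321 and 1907 CPM in HCT116 cells and 1227, 1131 and 1165 CPM in HCT116 oxpl-R cells, a log2FC of -1.07 (SE 0.27, adjusted p = 0.0130), 2.10-fold lower in the resistant line. The same order held under E1A + oxaliplatin, with 2092, 2141 and 1815 against 998, 1091 and 1389 CPM (-0.80, SE 0.20, adjusted p = 0.0112). The oxaliplatin call was lost without HCT116 oxaliplatin replicate 1 (-0.89, adjusted p = 0.0888) or 2 (-1.02, adjusted p = 0.0542) and kept without replicate 3 of either line (-1.19, adjusted p = 0.00879, for HCT116 and -1.01, adjusted p = 0.0287, for HCT116 oxpl-R). The call under both was lost without HCT116 oxpl-R E1A + oxaliplatin replicate 2 (-0.76, adjusted p = 0.0573) and kept without HCT116 E1A + oxaliplatin replicate 1 (-0.77, adjusted p = 0.00287). GSTP1P1, a pseudogene, had 0 counts in all 24 samples.

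MGST1, a membrane-bound transferase of the endoplasmic reticulum and mitochondria that also has peroxidase activity (chromosome 12, 16347142 to 16609259, plus strand), was higher in the resistant line. It measured 164, 154 and 138 CPM in HCT116 controls and 195, 300 and 204 CPM in HCT116 oxpl-R controls (log2FC 0.62, SE 0.16, adjusted p = 0.00929), a call that was lost in the common fit of all 24 samples (0.65, adjusted p = 0.293) and without HCT116 control replicate 3 (0.58, adjusted p = 0.0643). Without HCT116 oxpl-R control replicate 2, the sample at 300 CPM, the difference was 0.40 (adjusted p = 0.0152). Under E1A it measured 117, 126 and 144 CPM against 223, 334 and 189 CPM (1.05, SE 0.20, adjusted p = 0.00376). That call was lost in the common fit (1.01, adjusted p = 0.0784), and without HCT116 oxpl-R E1A replicate 2, the sample at 334 CPM, the difference was 0.70 (adjusted p = 0.00668). With oxaliplatin the values spread widely: 144, 183 and 56.8 CPM in HCT116 cells, 51.7, 181 and 183 CPM with E1A + oxaliplatin, and 111, 269 and 259 CPM in HCT116 oxpl-R cells. The lowest 2 of these values belonged to the 2 HCT116 libraries that stood apart. The line difference of MGST1 was 0.65 under oxaliplatin (adjusted p = 0.288) and 0.30 without HCT116 oxaliplatin replicate 3, and under both it was 0.74 (adjusted p = 0.145) and 0.34 without HCT116 E1A + oxaliplatin replicate 1.

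**Figure D1:**
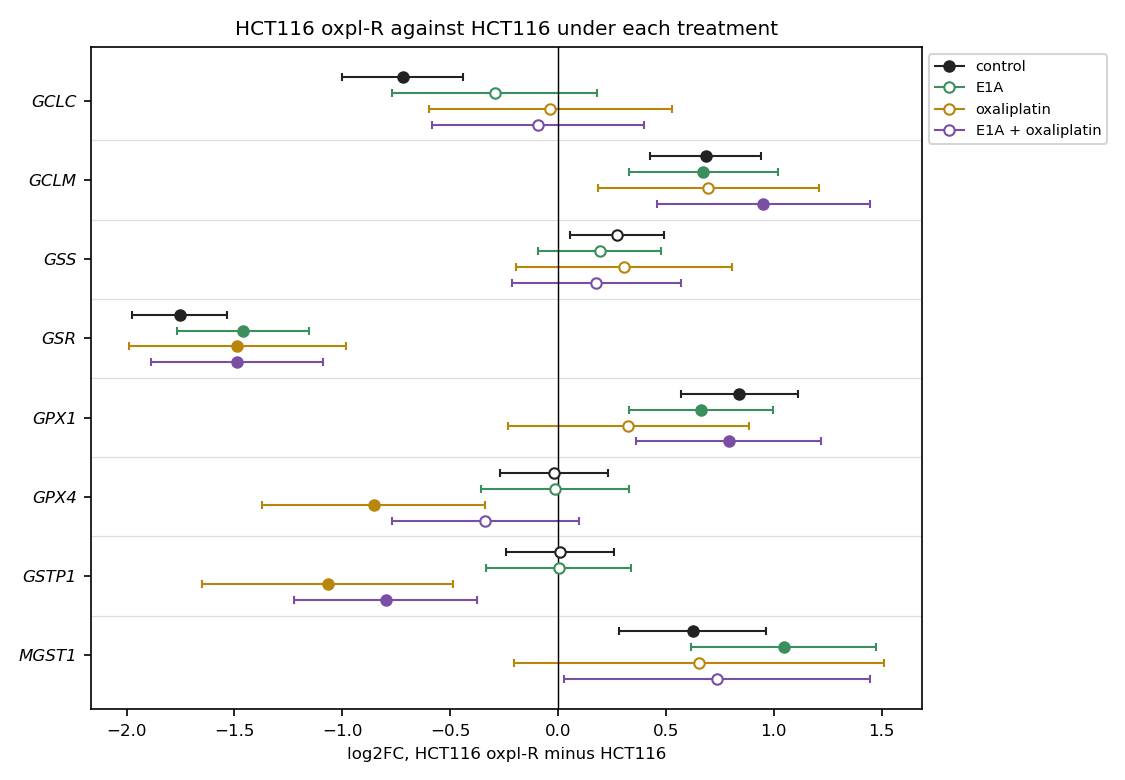
Log2FC of HCT116 oxpl-R minus HCT116 (horizontal axis) with 95% intervals for the 8 genes with ample counts, under each of 4 treatments (colours). Filled points have an adjusted p below 0.05. GSR lies between -1.75 and -1.46 under all treatments, while GSTP1 lies near 0 without oxaliplatin and at -1.07 and -0.80 with it.

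Oxaliplatin changed 5 of the 10 genes in HCT116 cells: GSS, GPX1, GPX4 and GSTP1 rose and GCLC fell. Of all genes tested, 13.1% were called higher and 10.2% lower. The 8 genes with ample counts had a median log2FC of 0.38, beside -0.02 over all genes with a mean of at least 10 counts. In HCT116 oxpl-R cells 2 of the 10 were called, GSS higher and GPX3 lower, where 2.02% of all genes were called higher and 2.1% lower. Without HCT116 oxaliplatin replicate 3 the same 5 were called in HCT116 cells, with a log2FC of 0.83 for GSS, 1.37 for GPX1, 0.82 for GPX4, 1.25 for GSTP1 and -0.98 for GCLC. Oxaliplatin is a platinum compound that forms DNA crosslinks.

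GPX1 had the highest log2FC among the well-counted genes in HCT116 cells. There it went from 412, 394 and 460 CPM in controls to 1167, 950 and 852 CPM (log2FC 1.30, SE 0.15, adjusted p = 0.000906), 2.47-fold. In HCT116 oxpl-R cells it went from 643, 850 and 761 to 1497, 1394 and 1071 CPM (0.82, SE 0.22), also without overlap, with an adjusted p of 0.0553. Without HCT116 oxpl-R oxaliplatin replicate 3, the library closest to the controls, the resistant response was 0.91 (adjusted p = 0.0207), and DESeq2 called it on all samples (0.80, adjusted p = 0.00504). The responses of the lines differed by -0.47 (SE 0.27, adjusted p = 0.427 for the interaction).

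GSTP1 rose in HCT116 cells by a log2FC of 1.16 (SE 0.17, adjusted p = 0.00180), 2.24-fold, and moved by 0.12 in HCT116 oxpl-R cells (SE 0.20, 95% interval from -0.31 to 0.55). The 3 treated HCT116 samples, at 1907 to 2722 CPM, lay above every other sample without E1A. The difference between the responses was tested as the interaction and came to -1.03 (resistant minus parental, SE 0.27, adjusted p = 0.0472). It was kept without HCT116 oxaliplatin replicate 3 (-1.15, adjusted p = 0.00812) or HCT116 oxpl-R oxaliplatin replicate 1 (-1.07, adjusted p = 0.0144), and was lost without any 1 of the other 10 samples, with values from -1.10 to -0.93 and adjusted p from 0.0602 to 0.175. In the interaction test, 0.694% of all genes were called higher and 1.75% lower.

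The windows before GSTP1 (chr11:67583562-67583811, plus strand, GRCh38.p14) and GPX1 (chr3:49358354-49358603, minus strand) are shown as the 2 genes with the largest rise with oxaliplatin in HCT116 cells among the 8 with ample counts. The GSTP1 window has overlapping matches to the response element core and the AP-1 site from 66 bases before the RefSeq start, and GPX1 has no match to either.

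GSTP1: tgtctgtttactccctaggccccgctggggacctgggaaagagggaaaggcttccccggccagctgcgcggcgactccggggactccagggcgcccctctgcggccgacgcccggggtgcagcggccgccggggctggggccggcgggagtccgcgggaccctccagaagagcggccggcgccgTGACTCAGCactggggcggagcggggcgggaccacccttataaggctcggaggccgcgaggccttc

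GPX1: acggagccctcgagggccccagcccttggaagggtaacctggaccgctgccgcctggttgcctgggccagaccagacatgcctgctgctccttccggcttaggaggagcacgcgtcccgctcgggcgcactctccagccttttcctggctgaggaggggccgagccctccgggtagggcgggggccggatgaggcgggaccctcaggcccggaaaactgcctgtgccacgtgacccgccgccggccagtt

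GPX4 rose in HCT116 cells by 0.75 (SE 0.15, adjusted p = 0.00684) and moved by -0.06 in HCT116 oxpl-R cells (95% interval from -0.49 to 0.38). The responses differed by -0.79 (SE 0.25, adjusted p = 0.110). Without HCT116 oxaliplatin replicate 3 that difference was -0.90 (adjusted p = 0.0277), without HCT116 oxpl-R oxaliplatin replicate 1 it was -0.92 (adjusted p = 0.0250), and DESeq2 called it on all samples (-0.83, adjusted p = 0.0165). Without HCT116 oxpl-R oxaliplatin replicate 3 it was -0.76 (adjusted p = 0.160) and was not called.

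GSS was the member called in both lines. It rose from 121, 121 and 136 to 210, 226 and 168 CPM in HCT116 cells (0.75, SE 0.14, adjusted p = 0.00532) and from 148, 152 and 153 to 323, 241 and 229 CPM in HCT116 oxpl-R cells (0.82, SE 0.20, adjusted p = 0.0363). The responses differed by 0.08, with a 95% interval from -0.43 to 0.59. The resistant call was lost without any of the 3 HCT116 oxpl-R controls (0.80 to 0.82, adjusted p from 0.0854 to 0.174) and kept without HCT116 oxpl-R oxaliplatin replicate 3 (0.86, adjusted p = 0.0168).

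The ligase genes did not rise with it. GCLC fell in HCT116 cells, from 67.8 to 82.3 CPM in controls to 31.5, 44 and 51.4 CPM (-0.77, SE 0.19, adjusted p = 0.0163), a call lost without HCT116 control replicate 1 (-0.74, adjusted p = 0.0716) or 2 (-0.72, adjusted p = 0.0803). It moved by -0.07 in HCT116 oxpl-R cells (95% interval from -0.52 to 0.39), and the responses differed by 0.73 (SE 0.29, adjusted p = 0.212). That difference was 0.90 (adjusted p = 0.0487) without HCT116 oxaliplatin replicate 3 and 0.60 (adjusted p = 0.360) without HCT116 oxpl-R oxaliplatin replicate 3. GCLM differed from the controls by -0.36 in HCT116 (adjusted p = 0.122) and -0.32 in HCT116 oxpl-R cells (adjusted p = 0.502).

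GSR and MGST1 showed no detectable response to oxaliplatin. GSR moved by 0.02 in HCT116 cells (95% interval from -0.29 to 0.33) and 0.31 in HCT116 oxpl-R cells (-0.08 to 0.70). MGST1 moved by -0.17 (-0.92 to 0.57) and -0.12 (-0.76 to 0.52), and by 0.14 in HCT116 cells without replicate 3 of the treated group.

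GPX3 fell in the resistant line, from 18, 64 and 20 counts to 5, 4 and 4 (pooled ratio 0.130, 95% counting interval from 0.0671 to 0.233, adjusted p = 0.0201). This call was lost without HCT116 oxpl-R control replicate 2, the sample with 64 counts (log2FC -2.14, adjusted p = 0.208), or HCT116 oxpl-R oxaliplatin replicate 1 (-2.91, adjusted p = 0.0597) and in the common fit of all groups (-2.89, adjusted p = 0.125), and was kept without HCT116 oxpl-R oxaliplatin replicate 3 (-2.91, adjusted p = 0.0303). In HCT116 cells GPX3 went from 0 counts in all controls to 5, 2 and 0, for which no fold is given. The interaction for GPX3 was called (adjusted p = 0.0411), but its size rests on controls without counts and depends on the fit, and the call was lost under 11 of 17 alternatives (adjusted p up to 0.185). GPX2 had 3, 4 and 1 counts in treated HCT116 cells and 6, 6 and 2 in treated HCT116 oxpl-R cells, with no call in either response.

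**Figure D2:**
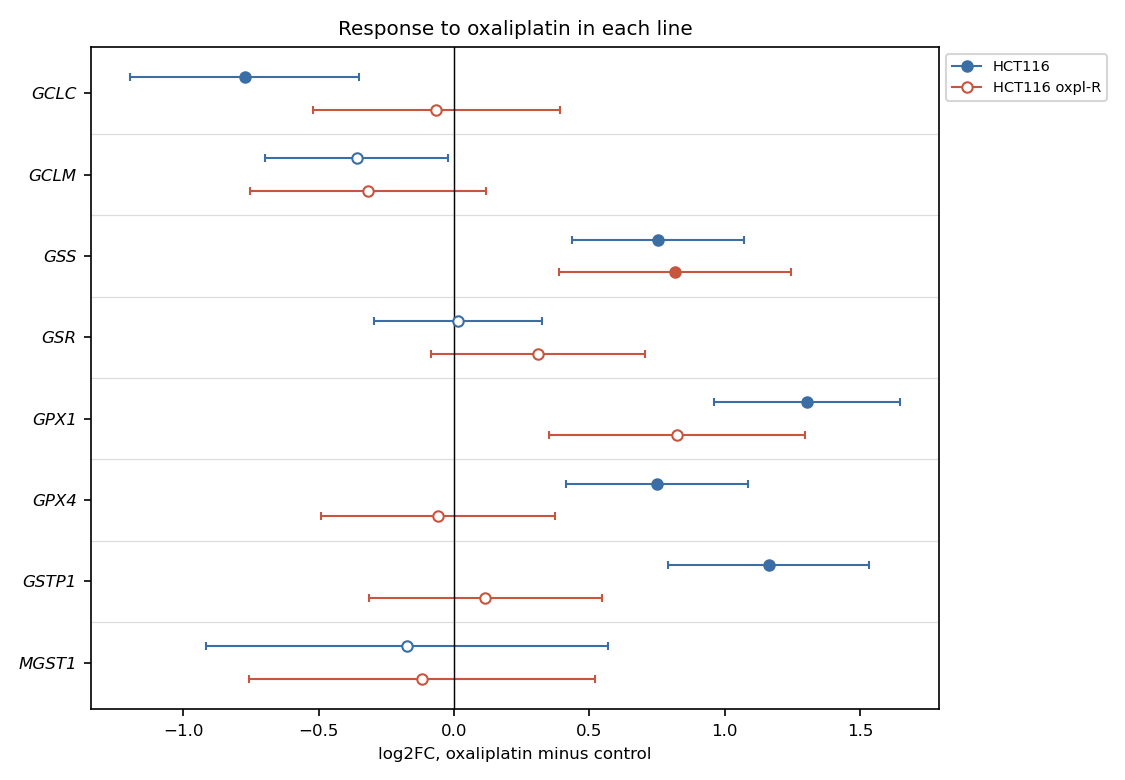
Log2FC of oxaliplatin minus control (horizontal axis) with 95% intervals in HCT116 and HCT116 oxpl-R cells (colours) for the 8 genes with ample counts. Filled points have an adjusted p below 0.05. GSTP1 and GPX4 rise by 1.16 and 0.75 in HCT116 cells and lie near 0 in HCT116 oxpl-R cells, while GSS rises in both.

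E1A changed few of these genes. The adenovirus protein binds RB family proteins and the acetyltransferases p300 and CBP and reprograms host transcription. In HCT116 cells 2 of the 10 were called, GCLC lower and GPX3 higher, where 2.91% of all genes were called higher and 6.59% lower. GCLC went from 78.8, 82.3 and 67.8 CPM to 59.0, 60.1 and 63.5 CPM (log2FC -0.37, SE 0.11, adjusted p = 0.0299), and the call was lost without HCT116 control replicate 1 or 2 or HCT116 E1A replicate 1 or 2 (-0.34 to -0.30). GPX3 went from 0 counts in all controls to 47, 0 and 13, at least 6.70-fold higher (adjusted p = 0.00662), or 2.40-fold without the sample of 47 counts. The second E1A sample had none, and the call was lost without HCT116 control replicate 1 (adjusted p = 0.0570) or 3 (adjusted p = 0.0516). It was also lost in the common fit of all groups and with a block for the replicate number, and DESeq2 did not call GPX3. GPX1 differed by 0.25 (SE 0.10, adjusted p = 0.127) and GSR by -0.27 (SE 0.10, adjusted p = 0.0947), both without overlap of the samples, and DESeq2 called both (0.26, adjusted p = 0.0390, and -0.26, adjusted p = 0.0431).

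In HCT116 oxpl-R cells none of the 10 was called with E1A by edgeR or by DESeq2, and 0 had an unadjusted p below 0.05. Of all genes, 0.0755% were called higher and 0% lower. The estimates of the 8 well-counted genes ran from -0.18 for GCLM to 0.10 for MGST1, with 95% intervals that reached from -0.55 to 0.62. The responses to E1A were not shown to differ between the lines: the interaction called 0 of the 10 (1 at an unadjusted p below 0.05, 0 by DESeq2), against 0.00548% of all genes higher and 0.011% lower.

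E1A added to oxaliplatin called none of the 10 in HCT116 cells (1 at an unadjusted p below 0.05, 0 by DESeq2), where 0.0246% of all genes were called higher and 0% lower. With both libraries that stood apart left out together, 0 were called as well. In HCT116 oxpl-R cells it also called none (0 at an unadjusted p below 0.05, 0 by DESeq2), against 0.638% of all genes higher and 0% lower. GPX2 went from 3, 4 and 1 counts to 0, 0 and 0 in HCT116 cells, and GSR from 158, 144 and 181 to 142, 130 and 119 CPM in HCT116 oxpl-R cells. Both are printed because their samples did not overlap, and neither was called. Comparisons within a line share samples: the oxaliplatin and E1A responses share the controls, and the effect of E1A on oxaliplatin shares the oxaliplatin samples with the response to the drug.

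The other genes around glutathione, 83 in 9 lists, were read from the same fits, with 77 of them in the count table and counted here. Between the untreated lines 19 of the 74 tested were called higher and 16 lower, with a median log2FC of 0.13, beside 14.1% and 14.2% of all genes. Among the other transferases 7 of 18 were higher in the resistant line and 0 lower, among them MGST2 (1.14), PTGES, a prostaglandin E synthase (1.19), and GSTM4 (0.71). GSTT2 was also called higher (1.29), but it has a near-identical copy, GSTT2B, with which it can share reads. Among the peroxiredoxins and catalase, 4 of 7 were higher and 0 lower, with PRDX4 at 0.78 and CAT, the catalase, at 0.52. The suppliers of NADPH, which GSR spends, and the glutaredoxins went mostly the other way: 2 of 10 were higher (GLRX at 0.98 and GLRX2 at 0.87) and 6 lower, with PGD, a dehydrogenase of the pentose phosphate pathway, at -0.68 and IDH2, the mitochondrial isocitrate dehydrogenase, at -0.54 among them.

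In the list of cystine supply and the gamma-glutamyl cycle, 3 of 14 were higher and 6 lower, some by more than any well-counted member. CTH, which makes cysteine from cystathionine, had 417, 367 and 331 counts in HCT116 controls and 1456, 1925 and 1653 in HCT116 oxpl-R controls (log2FC 2.28, SE 0.13). DPEP1, a dipeptidase that cleaves the cysteinylglycine released from glutathione, was higher by 3.04 (SE 0.19), while GGT1, the transferase that opens glutathione outside the cell, lay at -1.65 (SE 0.31), and CHAC1, which degrades glutathione inside the cell, lay at -1.16 (SE 0.21). SLC7A11, the cystine importer, lies beyond the end of the count table and was read from the second table, in which 12.6% of all genes were called higher. It had 827, 856 and 443 length-scaled counts in HCT116 controls and 1811, 1313 and 2238 in HCT116 oxpl-R controls (1.49, SE 0.24, adjusted p = 0.000591). NFE2L2, the gene of NRF2, was lower in HCT116 oxpl-R cells (-0.74, SE 0.11), its inhibitor KEAP1 was not called, and the NRF2 target NQO1 was higher (0.91, SE 0.14). Of the 8 genes in the list of NRF2, its regulators and targets, 1 was called higher, 1 lower and 6 not, HMOX1 and OSGIN1 among the last. Exporters of glutathione conjugates were split, with ABCC3 and ABCC5 higher and ABCC1, ABCC2 (-1.06) and ABCC4 lower.

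**Figure D3:**
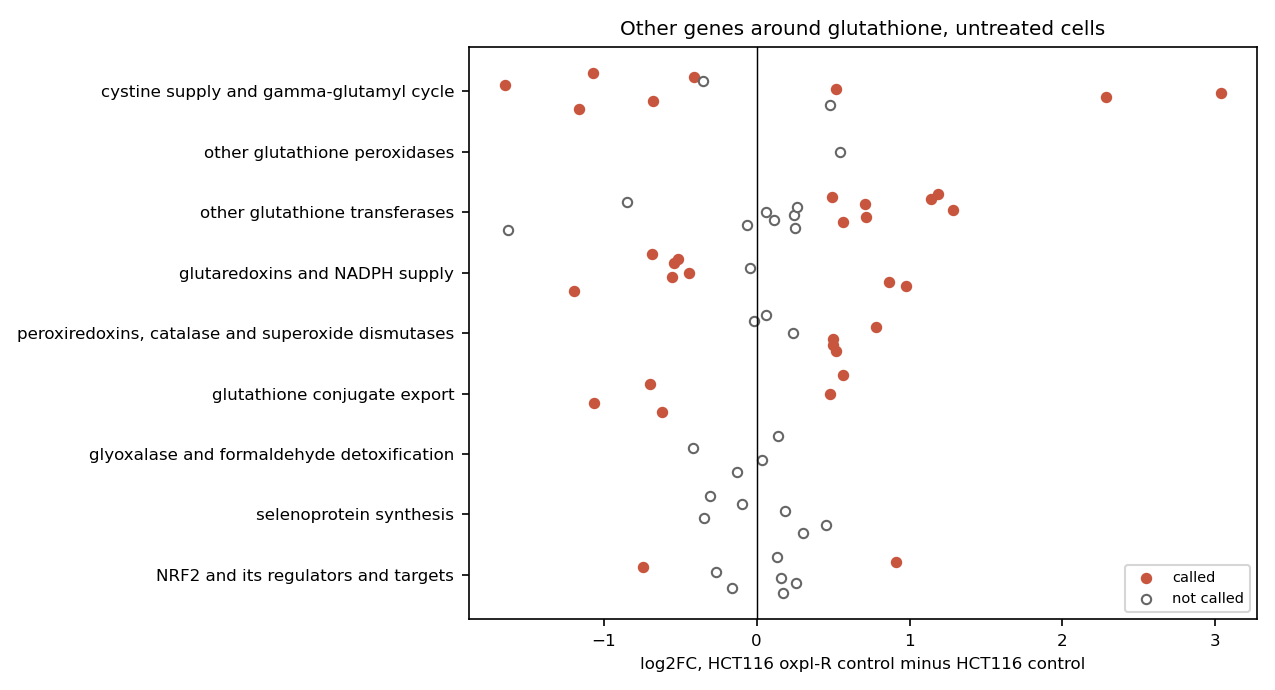
Log2FC of HCT116 oxpl-R control minus HCT116 control (horizontal axis) for 65 genes of the 9 lists with a mean of at least 10 counts in the count table, 1 point per gene, with a row for each list. Filled points have an adjusted p below 0.05. Called transferases and peroxiredoxins all lie to the right of 0, and 6 of the called genes of glutaredoxins and NADPH supply lie to the left.

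Under the treatments, 16 of 75 genes of the lists were higher and 10 lower in the resistant line with E1A (10.6% and 7.1% of all genes), 14 and 8 of 73 with oxaliplatin (9.77% and 10.9%), and 11 and 12 of 74 with both (10.1% and 8.39%). CTH and DPEP1 stayed among the called genes under each treatment, at 2.07 to 2.32 and 2.23 to 2.62. In response to oxaliplatin 15 of 73 rose and 12 fell in HCT116 cells (13.1% and 10.2% of all genes), and 3 of 73 rose and 1 fell in HCT116 oxpl-R cells (2.02% and 2.1%). With E1A alone 4 of 72 rose and 11 fell in HCT116 cells (2.91% and 6.59% of all genes). Among these were ADH5 at -0.72, GLRX at -0.69, NQO1 at -0.68 and PRDX2 at 0.66. None was called in HCT116 oxpl-R cells or with E1A on top of oxaliplatin in either line.

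SLC7A11 fell with oxaliplatin in both lines, while SLC3A2, its partner chain, was called in neither. In the second table SLC7A11 went to 54, 93 and 315 length-scaled counts in HCT116 cells (log2FC -2.15, SE 0.53, adjusted p = 0.0178), where 9.27% of all genes were called lower, and to 608, 402 and 561 in HCT116 oxpl-R cells (-1.77, SE 0.26, adjusted p = 0.00247), where 2.24% were. The highest of the treated HCT116 values was that of the library that stood apart, without which the log2FC was -3.17 (SE 0.32, adjusted p = 1.18e-05). The HCT116 call was lost without HCT116 control replicate 1 or 2 or HCT116 oxaliplatin replicate 2 (-2.03, -2.01 and -1.94, adjusted p of 0.0656, 0.0670 and 0.0579), and the resistant call was kept without any 1 sample (-1.99 to -1.58). CHAC1 fell in both lines too, by 2.11 and 1.71 on the log2 scale. CBS, which makes the cystathionine that CTH cleaves, had 11, 6 and 6 counts in HCT116 oxpl-R controls and 204, 160 and 179 with oxaliplatin (4.55, SE 0.37), while HCT116 cells went from 8, 11 and 4 to 9, 39 and 21 counts, with an interaction of 2.91 (SE 0.70, adjusted p = 0.0351). The values of CBS and CHAC1 are from the main fit only.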

How the data were processed

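RNA of 8 groups of 3 samples was sequenced as mRNA libraries. Per the labels and the study's methods, the authors trimmed reads with Trimmomatic, quantified them with Salmon 1.6.0 on GENCODE transcripts of GRCh38 and used tximport to bring transcripts to genes. The deposited values are estimated counts without normalization, of which 15.9% to 30.4% per sample were not whole numbers. The highest shares were 30.4% and 25.3%, in HCT116 oxpl-R oxaliplatin replicates 1 and 3. All values were rounded here. The table used ends at SETP6. Genes beyond it were read from a second table, named as TPM, whose columns sum to 28004261 to 42613322 and which was taken as length-scaled estimated counts that the authors deposited.

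Each pair of groups was fitted alone in edgeR 4.0.16 (R 4.3.3): TMM factors, quasi-likelihood test, genes with a count in any sample, Benjamini-Hochberg adjustment, calls at an adjusted p below 0.05. Responses were compared between lines by the interaction. On simulated counts for the untreated comparison (16068 genes), 91% of 100 genes changed by a log2FC of 1 and 100% of 100 changed by 2 were recovered. The changed genes were drawn from genes with ample counts. These shares do not extend to GPX2 and GPX3 or to the other comparisons. Alternatives were RLE factors, DESeq2 1.42.0, filterByExpr, a common fit of all groups, a block for the replicate number, the second table and each sample left out. Levels are CPM with TMM factors over 24 samples, per kb by the GENCODE canonical transcript (an earlier release than the authors'), which also gave positions. Same-numbered samples deviated together (every correlation above 0.1) only between the lines under oxaliplatin (0.141, 0.188 and 0.253), where the block changed no call of a member. Within HCT116 oxpl-R cells some correlations were higher, though not all passed that limit: 0.0839, 0.465 and 0.547 for oxaliplatin and 0.0280, 0.508 and 0.678 for E1A. The replicates are labelled biological. Promoter windows come from RefSeq (GRCh38.p14), whose starts can differ from those of GENCODE. All 10 members were tested in each comparison, and every call of a member is named. Of the lists, SLC7A11, SLC3A2, NFE2L2, KEAP1, NQO1 and some of the called genes with the largest change and a mean of at least 10 counts are named. Not every such gene is named in every comparison, and further list genes were named after their values were seen. The members and lists were chosen with earlier results of these data known. Python 3.11.15 with pandas 2.3.3, scipy 1.17.1 and matplotlib 3.10.9 served for tables and plots.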

Additional observations from a re-analysis of the deposited data

Results flagged for a closer look

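The response of GSTP1 to oxaliplatin differed between the lines by a log2FC of -1.03 (SE 0.27, resistant minus parental, adjusted p = 0.0472 by edgeR's interaction test), with a rise in 3 of 3 treated HCT116 samples above the highest control and values of 1131 to 1227 CPM in treated HCT116 oxpl-R cells beside 1018 to 1146 CPM in their controls. The response of GPX3 differed by a fitted -7.18 (SE 1.75, adjusted p = 0.0411), which is no measure of size, since all 3 HCT116 controls had 0 counts. Both differences were tested directly. Each lost its call under 11 alternatives, of 18 for GSTP1 (highest adjusted p of 0.175) and of 17 for GPX3 (highest 0.185), among them leaving out HCT116 oxpl-R oxaliplatin replicate 3 (0.0602 for GSTP1 and 0.0635 for GPX3).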

How the results depend on the processing

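Of the 29 calls of members, 12 were kept under every alternative, 17 were lost under at least 1 and 0 changed direction. The calls kept were GSR between the lines under all 4 conditions, GCLC, GCLM, GPX1 and GPX3 between the untreated lines, and GSS, GPX1, GPX4 and GSTP1 in response to oxaliplatin in HCT116 cells. For E1A in HCT116 cells the 2 called members became 0 with all 24 samples in one fit, with filterByExpr and with the replicate block, and 1 in the second table. DESeq2 called 3 (GCLC, GPX1 and GSR) and did not call GPX3. In this comparison GPX3 was assessed under 10 alternatives and GCLC under 12. For the interaction of oxaliplatin and line, 2 became 1 in the common fit, 3 with filterByExpr and 0 with the replicate block, and single samples left out gave 0 to 4, the highest without HCT116 oxaliplatin replicate 3. Leaving out single samples gave 6 to 8 calls between the untreated lines, 2 to 4 under E1A, 1 to 4 under oxaliplatin, 3 to 4 under both, 4 to 5 for oxaliplatin in HCT116 cells, 0 to 3 for oxaliplatin in HCT116 oxpl-R cells and 0 to 3 for E1A in HCT116 cells. The causes were not tested. The block also ended the calls of GCLC for oxaliplatin in HCT116 cells (adjusted p = 0.0642) and of GPX2 between the untreated lines (0.107), in comparisons in which the numbers did not pair the samples, and changed no call between the lines under oxaliplatin. The GPX2 call between the untreated lines was also lost in the second table. The comparisons with no called member stayed at 0 in every alternative. GPX2 and GPX3 had at most 64 counts in a sample, and the counting intervals and limits of their folds stand beside the values. Leaving samples out for SLC7A11 and for the limits of GPX3 was chosen after seeing the data.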

Other observations

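Across the 24 samples, the gene whose log2(CPM + 1) profile was most like that of each member was KCTD3 for GCLC (Pearson r of 0.925), CYBRD1 for GCLM (0.936), AIFM2 for GSS (0.969), PRXL2A for GSR (0.979), FADS3 for GPX1 (0.968), AP4M1 for GPX4 (0.948), FIS1 for GSTP1 (0.967) and PSMG2 for MGST1 (0.977), among 11096 genes with a mean of at least 10 counts. For the low-count genes the highest values were 0.795 for GPX2 (LCDR) and 0.729 for GPX3 (ITGA9). The samples fall into lines and treatments that every gene shares, so these are descriptions with no test.

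GGT6, a gene of the gamma-glutamyltransferase family, had 1, 0 and 0 counts in HCT116 oxpl-R controls and 32, 30 and 45 with oxaliplatin. With E1A + oxaliplatin it had 24, 22 and 82 counts. The HCT116 cells treated alike had 6, 3 and 7 and 7, 0 and 6 counts. The HCT116 control and HCT116 E1A samples had a mean of 2.5 counts. The interaction of oxaliplatin and line did not call GGT6, so its responses were not shown to differ between the lines. ADH5 and ESD, which act in the glutathione-dependent removal of formaldehyde, and SECISBP2, which is needed to make selenoproteins such as GPX1 and GPX4, responded differently to oxaliplatin in the lines by 1.30, 1.10 and 1.11 (interaction by edgeR, resistant minus parental, adjusted p = 0.0112, 0.0423 and 0.0303). All 3 fell in HCT116 cells, by 0.90, 1.12 and 0.85 on the log2 scale, and none was called in HCT116 oxpl-R cells. These 3 interactions are given from the main fit only, and how they depend on the alternatives is not shown.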
